A study of Mus musculus with 4 samples.

Results

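The 36 genes described here act in homologous recombination and in the Fanconi anaemia pathway of mouse cells. They were picked by gene symbol from a table of 54446 genes, as a list by function that uses no measured value but was drawn up with earlier results of these data known, and each symbol was found once. All 36 had a value above 0 in each of the 4 libraries, as did 17787 genes of the table. RNA was sequenced from mammary gland cells of wild type C57BL/6 mice that had been sorted by flow cytometry, embedded in Matrigel and grown in 3D culture in medium with EGF and an insulin, transferrin and selenium supplement. Each culture received either DMSO, the control, or 100 μM baicalin, a flavonoid from the roots of Scutellaria. One library was made from each of 4 cultures: cells labelled basal with DMSO, cells labelled basal with baicalin, cells labelled luminal with DMSO, and cells labelled luminal with baicalin. The labels give neither the number nor the age of the mice nor the time from treatment to harvest. The methods of the study describe glands of virgin mice in a stated age range of weeks, or of other female mice at given stages. They do not say which served these libraries. The sort used antibodies to CD24, CD29 and markers of blood and endothelial cells. With 1 library per group there are no replicates, so no test between groups was possible and no p-value is given.

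Homologous recombination repairs a broken chromosome, or a stalled replication fork, by copying the sister chromatid. The ends are first cut back to single strands, which are made ready for strand exchange with the help of BRCA1, PALB2 and BRCA2 and then invade the intact copy. The Fanconi pathway marks and unhooks crosslinks between the DNA strands and hands the resulting break to the same machinery. Some of these genes, Brca1, Brca2 and Palb2 among them, are known as susceptibility genes of breast cancer, and many are transcribed mostly in cells that replicate their DNA.

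Values are FPKM, in which the fragments of a gene are divided by its exon length and by the total of the library, so that levels can be set side by side between genes. Between 19356025 and 20648657 fragments lay behind each library, as recovered from the steps of the FPKM values, and 99.1 to 99.2% of the genes with few reads came out within 0.1 of a whole number of fragments. The fragments behind one repair gene in one library ranged from 13 to 5997. A ratio of FPKM is given with its exact 95% Clopper-Pearson interval from these fragments. Such an interval covers counting error only, since reads copied by PCR are not independent molecules and the variation between cultures is not part of it.

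The cell labels went against the markers of both mammary layers. Krt5, a keratin of the basal layer, stood at 128 FPKM in the DMSO library and 3.01 FPKM in the baicalin library labelled basal, and at 2015 and 2415 FPKM in those labelled luminal. Krt14, the partner of Krt5 in basal cells, stood at 1494 and 417 FPKM under the basal label and at 2308 and 3132 FPKM under the luminal label. Krt8, a keratin of luminal cells, was at 1573 and 754 FPKM under the basal label and at 383 and 324 FPKM under the luminal label, and Krt18 was at 1408, 948, 298 and 197 FPKM in the same order. All 10 basal markers were higher in the library labelled luminal with DMSO, and all 10 were higher there with baicalin. All 10 luminal markers were lower in the library labelled luminal in both comparisons. The names basal and luminal are therefore used below only as the labels of the libraries. Markers of fibroblasts and endothelial cells were low: the summed FPKM of 6 fibroblast markers was 2.60 to 10.4, and that of 5 endothelial markers was 0.876 to 3.46. Among the 6 immune markers the sum was 16.4 and 53.6 FPKM under the basal label and 5.41 and 16.4 FPKM under the luminal label. In the same order, Cd68 was at 7.49, 51.5, 4.44 and 13.7 FPKM, and Lyz2 at 8.84, 2.17, 0.903 and 2.61 FPKM. Ptprc, which marks all white blood cells, did not exceed 0.0138 FPKM.

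With DMSO, the repair genes were expressed at low and similar levels under both labels. Their median was 2.57 FPKM under the basal label and 2.67 FPKM under the luminal label, against 5.83 and 5.79 FPKM for the 13873 protein-coding genes above 0 in all libraries. Rad50, Nbn and Rbbp8, which act at DNA ends, had the highest levels: Rad50 was at 19.0 FPKM and Rbbp8 at 16.5 FPKM under the basal label, and at 13.0 and 24.7 FPKM under the luminal label, with Nbn at 18.6 and 15.9 FPKM. Fancf was the lowest under the basal label, at 0.596 FPKM, and Palb2 under the luminal label, at 0.619 FPKM. With baicalin the median was 1.12 FPKM under the basal label and 1.80 FPKM under the luminal label, whereas the protein-coding genes stayed at 5.84 and 5.69 FPKM. The number of repair genes under 1 FPKM went from 3 with DMSO to 18 with baicalin under the basal label and from 2 to 8 under the luminal label. The share of all genes under 1 FPKM was not counted. The summed FPKM of the 36 genes was 156 with DMSO and 106 with baicalin under the basal label, and 154 and 119 under the luminal label.

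**Figure D1:**
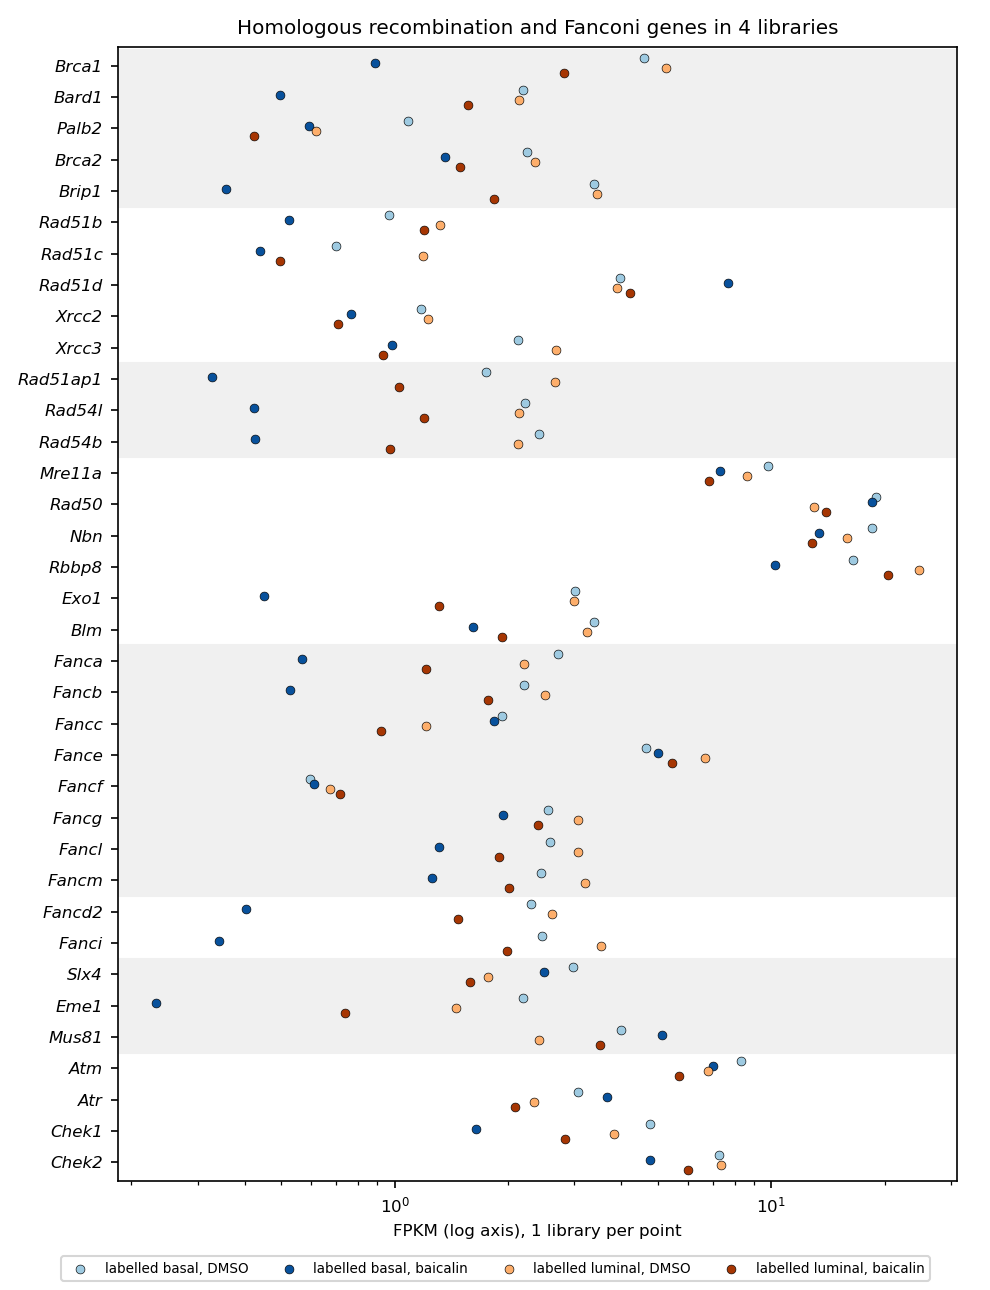
FPKM of each of the 36 genes (log axis) in the 4 libraries, 1 point per library, with grey and white bands for the groups by role. The baicalin library labelled basal is the lowest point for most genes of recombination and crosslink repair, down to 0.232 FPKM for Eme1, while the end-sensing genes Mre11a, Rad50, Nbn and Rbbp8 stay above 6 FPKM everywhere.

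Under the basal label, baicalin went with lower levels of most repair genes. Changes are given as log2 of the ratio after adding 1 to each FPKM, which understates the change of low genes, and a gene is counted as lower or higher when this change passed 1. Of the 36 genes, 13 were lower by this rule and none was higher, whereas 3.33% of all genes tested were lower and 2.15% were higher. In sign alone, 31 were below 0 and 5 above, beside 49.1% and 50.9% of all genes. The median change of the repair genes was -0.57 on the log2 scale, beside 0.01 for all genes, with a range from -1.69 for Brip1 to 0.80 for Rad51d. The counting interval of the ratio lay wholly below 1 for 29 of the 36 genes, beside 26.3% of all genes, and wholly above 1 for 3 genes, beside 28.1%. In bulk RNA, fewer cells that express a gene and less of its RNA per cell cannot be told apart. Markers of the cell layers differed in the same comparison: 9 of the 10 basal markers and 8 of the 10 luminal markers were lower with baicalin, 4 of each list by more than 1 on the log2 scale, and their part in the result was not tested.

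Of the BRCA genes and their partners, Brca1, Bard1 and Brip1 had the lowest ratios. Brca1 (ENSMUSG00000017146, chr11:101488764-101551955, minus strand, GRCm38) encodes the ubiquitin ligase that acts first in this group, and its level was 4.60 FPKM with DMSO and 0.890 FPKM with baicalin. The ratio was 0.194 (95% counting interval 0.162 to 0.230), or 5.17-fold lower. Bard1 (chr1:71027498-71103146), which encodes the obligate partner of BRCA1, went along with it, from 2.20 to 0.497 FPKM, a ratio of 0.226 (0.166 to 0.302). Brip1 (ENSMUSG00000034329, chr11:86058138-86201193), the helicase that binds BRCA1, was at 3.39 FPKM with DMSO and 0.357 FPKM with baicalin. At a ratio of 0.106 (0.0782 to 0.140) it shared the lowest place among the 36 genes with Eme1. Palb2, which bridges BRCA1 to BRCA2, was at 1.08 and 0.591 FPKM (ratio 0.545, 0.415 to 0.712). Brca2, which acts after them in the preparation of the strand, was at 2.25 and 1.36 FPKM (0.603, 0.529 to 0.687). The intervals of Palb2 and Brca2 thus stayed clear of those of Brca1, Bard1 and Brip1.

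Rad51ap1, Rad54l and Rad54b, grouped here as genes of strand invasion and its motors, were all lower. Rad51ap1, which helps the strand to join the intact copy, was at 1.75 FPKM with DMSO and 0.328 FPKM with baicalin (ratio 0.188, 0.124 to 0.275). Rad54l and Rad54b encode motor proteins that move along DNA during strand exchange. Rad54l was at 2.22 and 0.422 FPKM (0.191, 0.144 to 0.249), and Rad54b at 2.42 and 0.426 FPKM (0.176, 0.128 to 0.239). The 3 ratios lay within each other's intervals. Rad54b shares 35.8% of its exon bases with Fsbp on the same strand, so its reads are uncertain.

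Rad51b, Rad51c, Rad51d, Xrcc2 and Xrcc3, whose proteins form complexes that assist strand exchange, were less uniform, and none of the 5 passed a log2 change of 1 in either direction. Xrcc3 was at 2.12 FPKM with DMSO and 0.986 FPKM with baicalin, a ratio of 0.464 (0.330 to 0.645). Rad51b, Rad51c and Xrcc2 were at 0.965, 0.701 and 1.18 FPKM with DMSO and at 0.525, 0.439 and 0.766 FPKM with baicalin, with ratios of 0.544, 0.626 and 0.650. Rad51d (ENSMUSG00000018841, chr11:82876434-82890614) went the other way, from 3.96 to 7.66 FPKM on 292 and 577 fragments. Its ratio of 1.93 (1.68 to 2.23) was the highest of the 36 genes, and no exon of another gene overlaps it in the annotation used.

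Among the genes that sense and cut back DNA ends, only Exo1 was lower past 1, and the interval of Rad50 alone held 1. MRE11A, RAD50 and NBN form the complex that first binds an end. Mre11a was at 9.79 FPKM with DMSO and 7.30 FPKM with baicalin (0.745, 0.682 to 0.814), Nbn at 18.6 and 13.4 FPKM (0.723, 0.654 to 0.798), and Rad50 at 19.0 and 18.5 FPKM (0.973, 0.914 to 1.04). Rbbp8, which starts the cutting with this complex, was at 16.5 and 10.2 FPKM (0.620, 0.590 to 0.651), an interval that is approximate because its fragments did not come out whole. Exo1 (chr1:175880581-175913489), the exonuclease that lengthens the single strand, was by contrast at 3.02 FPKM with DMSO and 0.451 FPKM with baicalin, which is 6.70-fold lower (ratio 0.149, 0.116 to 0.190). Blm, the helicase that works in long resection and in resolving joined chromatids, was at 3.39 and 1.61 FPKM (0.476, 0.412 to 0.549). On the lower side, its change of -0.75 was the nearest outside the threshold and that of Rad51ap1, at -1.05, the nearest inside, while on the higher side Rad51d came nearest, at 0.80.

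In the Fanconi pathway, both substrates of the core complex were lower past 1 and most members of that complex were not. Fancd2 (chr6:113531682-113597017) and Fanci (chr7:79391929-79450264) encode the clamp that receives ubiquitin at a crosslink. Fancd2 was at 2.31 FPKM with DMSO and 0.404 FPKM with baicalin (0.175, 0.132 to 0.228), and Fanci at 2.46 and 0.342 FPKM (0.139, 0.0971 to 0.194). Of the 8 genes of the core complex and its anchor, Fanca and Fancb were lower past 1. Fanca was at 2.72 and 0.568 FPKM (0.209, 0.167 to 0.260), and Fancb at 2.21 and 0.529 FPKM (0.239, 0.157 to 0.354). Fancl, the ubiquitin ligase of the complex, was at 2.58 and 1.32 FPKM, and Fancm, the translocase that anchors it to DNA, at 2.45 and 1.26 FPKM, with ratios of 0.509 and 0.514. Fancg was at 2.56 and 1.94 FPKM, a ratio of 0.756 (0.606 to 0.941). For Fancc, Fance and Fancf the interval held 1: they were at 1.93, 4.66 and 0.596 FPKM with DMSO and at 1.83, 5.02 and 0.612 FPKM with baicalin. The interval of Fancf, from 0.530 to 1.998, rests on 20 and 21 fragments and leaves a change of nearly 2-fold undetectable at this depth.

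The nucleases that cut joined or crosslinked strands were not uniform either. EME1 and MUS81 are the 2 subunits of 1 enzyme. Eme1 (ENSMUSG00000039055, chr11:94644996-94653964) was at 2.19 FPKM with DMSO and 0.232 FPKM with baicalin, on 120 and 13 fragments, with a ratio of 0.106 (0.0549 to 0.188). Mus81 (chr19:5482345-5488402) was at 3.98 and 5.14 FPKM (1.29, 1.10 to 1.51). The level of one subunit was thus lower and that of the other higher. A transcript of Mus81 aligns to the gene Gm48985 over 286 bases at 95.1% identity, so some of its reads may be shared. Slx4, the scaffold that holds these nucleases, was at 2.97 and 2.50 FPKM (0.840, 0.732 to 0.964).

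Of the signalling kinases, only Chek1 (chr9:36708482-36727065) passed the threshold. It acts in the S phase checkpoint and was at 4.76 FPKM with DMSO and 1.65 FPKM with baicalin (0.346, 0.287 to 0.417). Atr, the kinase that activates CHK1, was higher with baicalin, at 3.06 and 3.66 FPKM (1.19, 1.11 to 1.28). Atm, which answers to broken ends, was at 8.29 and 7.02 FPKM (0.846, 0.788 to 0.908), and its target Chek2 at 7.28 and 4.78 FPKM (0.656, 0.564 to 0.763). The 13 genes that were lower past 1 were all between 1.75 and 4.76 FPKM with DMSO. The 6 repair genes at 5 FPKM or more with DMSO, namely Atm, Nbn, Mre11a, Rbbp8, Rad50 and Chek2, had ratios from 0.620 to 0.973.

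**Figure D2:**
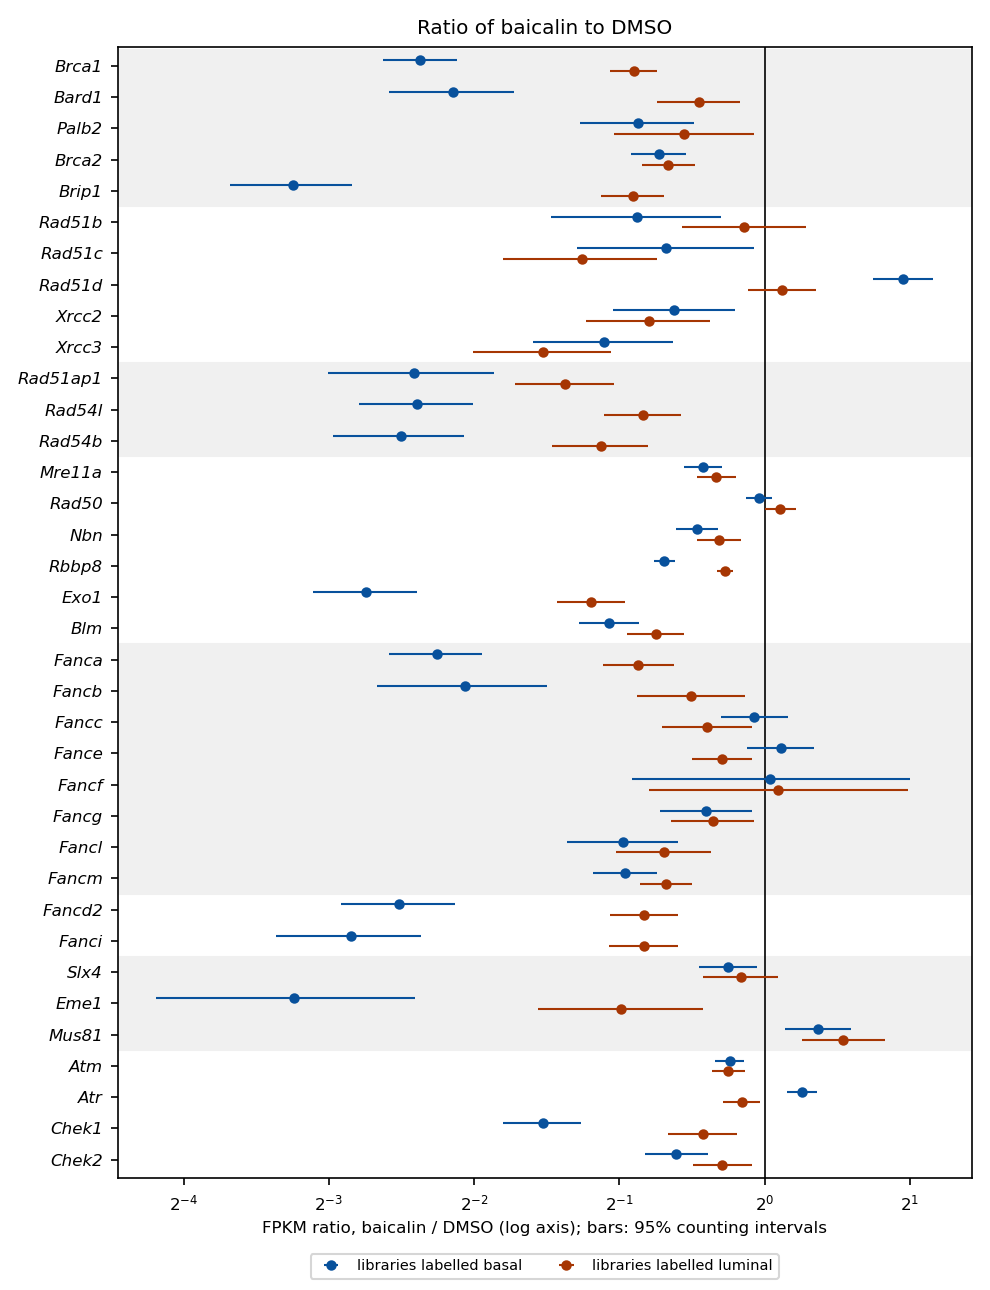
Ratio of the FPKM with baicalin to that with DMSO (log axis) for each gene under the basal label (blue) and the luminal label (brown), with bars for the exact 95% counting intervals. Under the basal label 13 genes lie between 0.106 and 0.346, while under the luminal label the lowest ratio is 0.347, for Xrcc3.

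Under the luminal label the repair genes were also lower with baicalin, by less. None of the 36 passed a log2 change of 1 in either direction, beside 1.59% of all genes that were lower and 2.37% that were higher. In sign alone, 32 were below 0 and 4 above, beside 54.4% and 45.6% of all genes. The median change was -0.34, beside -0.02 for all genes, and it ranged from -0.93 for Xrcc3 to 0.40 for Mus81. The counting interval lay below 1 for 30 genes, beside 28.7% of all genes, and above 1 for Mus81 alone, beside 22.9%. Of the basal markers 5 were lower and 5 higher in this comparison, of the luminal markers 8 were lower and 2 higher, and their part in the result was not tested.

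The lowest ratios under the luminal label were those of 5 genes. Xrcc3 was at 2.69 FPKM with DMSO and 0.933 FPKM with baicalin (0.347, 0.249 to 0.479), Rad51ap1 at 2.66 and 1.03 FPKM (0.386, 0.303 to 0.487), and Rad51c at 1.19 and 0.497 FPKM (0.418, 0.287 to 0.599). Exo1 was at 3.00 and 1.31 FPKM (0.437, 0.372 to 0.513) and Rad54b at 2.13 and 0.972 FPKM (0.457, 0.363 to 0.573). These 5 were the genes with a ratio under 0.5, beside 8.64% of all genes, and the added 1 kept each of them short of the threshold. XRCC3 and RAD51C form a complex of their own.

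Brca1 and its partners were closer to their DMSO level than under the basal label. Brca1 was at 5.27 FPKM with DMSO and 2.83 FPKM with baicalin (0.536, 0.479 to 0.599), Brip1 at 3.45 and 1.84 FPKM (0.533, 0.459 to 0.618), and Bard1 at 2.15 and 1.57 FPKM (0.730, 0.598 to 0.889). Brca2 was at 2.37 and 1.49 FPKM (0.631, 0.557 to 0.716), and Palb2 at 0.619 and 0.422 FPKM (0.682, 0.486 to 0.951). Here the 5 genes of this group lay close together. The clamp genes Fancd2, at 2.62 and 1.48 FPKM, and Fanci, at 3.53 and 1.99 FPKM, had ratios of 0.563 and 0.562. Fanca was at 2.21 and 1.21 FPKM (0.547), Fancb at 2.51 and 1.77 FPKM (0.705), and the other core and anchor genes had ratios between 0.619 for Fancl and 1.07 for Fancf. Rad54l, at 2.14 and 1.19 FPKM, had a ratio of 0.558. Xrcc2, Blm and Eme1 were at 1.23, 3.24 and 1.46 FPKM with DMSO and at 0.706, 1.93 and 0.736 FPKM with baicalin.

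The abundant end-sensing genes and the kinases had ratios of 0.743 to 1.08 under the luminal label. Mre11a was at 8.64 and 6.86 FPKM (0.794), Nbn at 15.9 and 12.8 FPKM (0.804), Rbbp8 at 24.7 and 20.5 FPKM (0.828) and Rad50 at 13.0 and 14.0 FPKM (1.08, 0.9998 to 1.16). Chek1 was at 3.82 and 2.84 FPKM (0.743, 0.632 to 0.874), Chek2 at 7.35 and 6.00 FPKM (0.817), Atm at 6.79 and 5.70 FPKM (0.840) and Atr at 2.34 and 2.09 FPKM (0.895). Each of these intervals lay below 1 except that of Rad50. Mus81 was higher here too, at 2.42 and 3.52 FPKM (1.45, 1.19 to 1.78). Rad51d was at 3.89 and 4.22 FPKM (1.08, 0.922 to 1.28), and Rad51b at 1.32 and 1.20 FPKM (0.908, 0.675 to 1.22), so that neither was separated from 1.

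The 2 baicalin comparisons share no library. The change was below 0 under both labels for 30 of the 36 genes, beside 31.4% of all genes tested. It was above 0 under both for Rad51d, Fancf and Mus81, beside 28% of all genes, and of opposite sign for Rad50, Fance and Atr, beside 40.6%. The counting interval lay below 1 under both labels for 27 of the 36 genes, beside 13.8% of all genes. Over the 36 genes the changes under both labels had a Spearman rho of 0.816 and a Pearson r of 0.763, against a rho of 0.286 over all genes tested. These are descriptions across genes, which are not independent replicates and which share the depth of 4 libraries.

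The ratio of baicalin to DMSO was lower under the basal label than under the luminal label for 28 of the 36 genes, beside 46.3% of all genes, and lower under the luminal label for Rad51c, Rad51d, Xrcc2, Xrcc3, Fancc, Fance, Atm and Atr. The ratio under the luminal label was divided by that under the basal label, and the exact 95% interval of this quotient lay above 1 for 19 genes, beside 21.5% of all genes, below 1 for Rad51d, Fance and Atr, beside 24.9%, and held 1 for 14. All 13 genes that were lower past 1 under the basal label had quotients above 1, with intervals clear of 1. They were picked by their low ratio under the basal label, which is the divisor of the quotient. Their quotients, such as those given next, were largely fixed by that choice and add no evidence of a difference between labels. The quotient was 5.05 (3.65 to 7.06) for Brip1, 4.76 (2.31 to 10.3) for Eme1, 4.05 (2.78 to 6.01) for Fanci and 2.77 (2.25 to 3.42) for Brca1. For Palb2, Brca2, Rad51c, Xrcc2 and Xrcc3 the interval held 1. In Brca2 it ran from 0.872 to 1.26 and in Xrcc3 from 0.466 to 1.20. For Rad51d the quotient was 0.561 (0.451 to 0.698), and for Atr it was 0.750 (0.671 to 0.839). These intervals again cover counting error only, and with 1 library per group a difference between labels cannot be told apart from a difference between cultures.

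**Figure D3:**
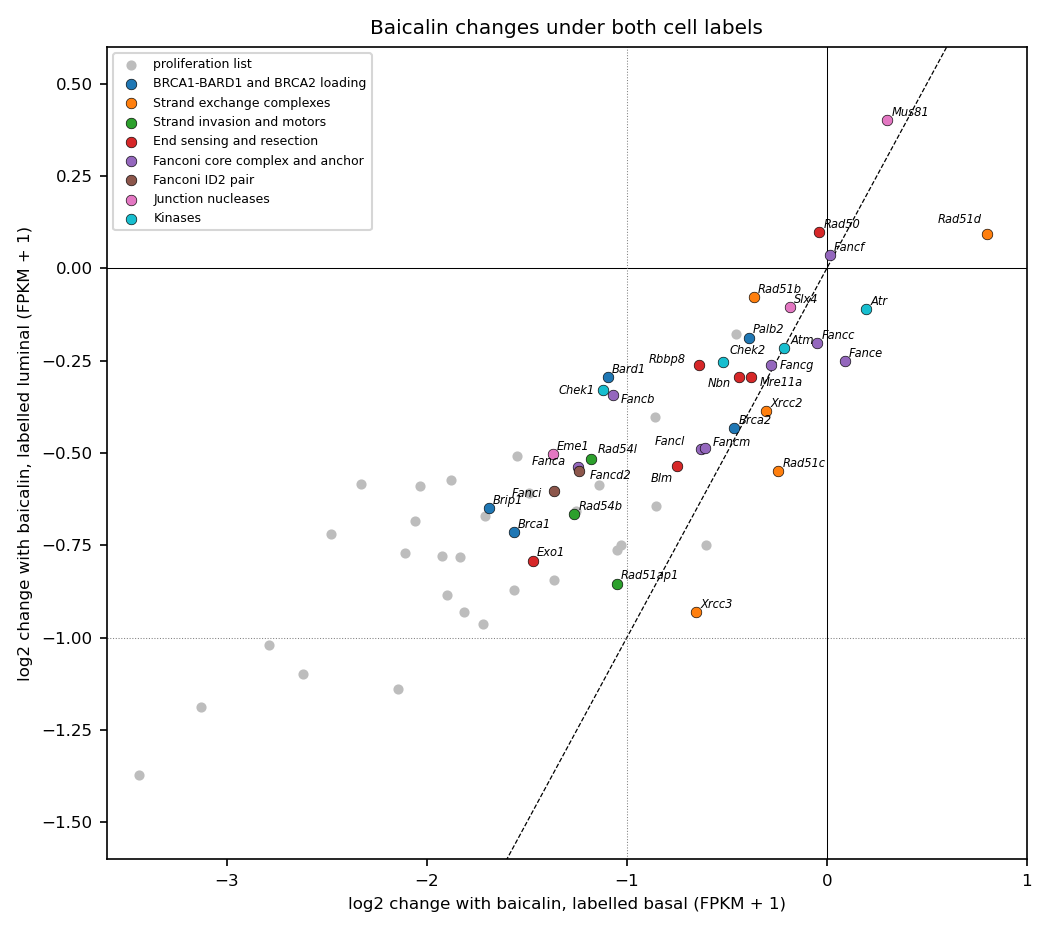
Log2 change of FPKM + 1 with baicalin under the basal label (horizontal) and the luminal label (vertical, drawn on a stretched axis) for the 36 genes, coloured by role, and for 29 proliferation genes in grey. The dashed line marks equal change and the dotted lines a change of -1. Of the 36 genes, 28 lie above the dashed line, 13 lie left of -1 and none lies below -1 on the vertical axis.

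With DMSO the libraries of both labels differed little in the repair genes. Of the 36 genes, 18 were lower and 18 higher in the library labelled luminal, beside 47.5% and 52.5% of all genes. None passed a log2 change of 1, beside 3.86% of all genes that were lower and 4.71% that were higher, and the median change was 0.00. The ratio of the luminal-labelled to the basal-labelled library ran from 0.571 (0.435 to 0.746) for Palb2 to 1.70 (1.22 to 2.37) for Rad51c. Its interval lay below 1 for 12 genes and above 1 for 7, beside 30.2% and 30.5% of all genes. All 3 nuclease genes were among the 12, with ratios of 0.597 for Slx4, 0.667 for Eme1 and 0.607 for Mus81, and so were Rad50 at 0.683 and Fancc at 0.628. Rbbp8 at 1.499, Rad51ap1 at 1.52, Fanci at 1.44 and Fance at 1.43 were among the 7. When the values were rescaled to TPM, 4 genes near a ratio of 1 (Brca2, Brip1, Chek2 and Xrcc2) changed sign.

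In the repair genes, the baicalin libraries of both labels stood further apart than the DMSO libraries. Of the 36 genes, 24 were higher and 12 lower in the library labelled luminal, beside 45.2% and 54.8% of all genes. Brca1, Brip1 and Fanci were higher past a log2 change of 1, with ratios of 3.18 (2.65 to 3.83), 5.15 (3.84 to 7.02) and 5.82 (4.15 to 8.35), beside 5.24% of all genes that were higher and 2.99% that were lower. Without the added 1, 14 repair genes had a ratio over 2, beside 14.8% of all genes. The interval lay above 1 for 19 genes and below 1 for 8, beside 25.8% and 33.7% of all genes, and the 8 included Rad51d at 0.552, Atr at 0.573, Fancc at 0.502 and Slx4 at 0.633. For Palb2, Rad50, Fancc, Slx4, Mus81, Atm and Atr the interval lay below 1 with both DMSO and baicalin. The share of all genes with both intervals below 1 was not counted, so this list has no background beside it. Since all 10 basal markers were higher under the luminal label in both comparisons, cell type, culture and label cannot be told apart.

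**Figure D4:**
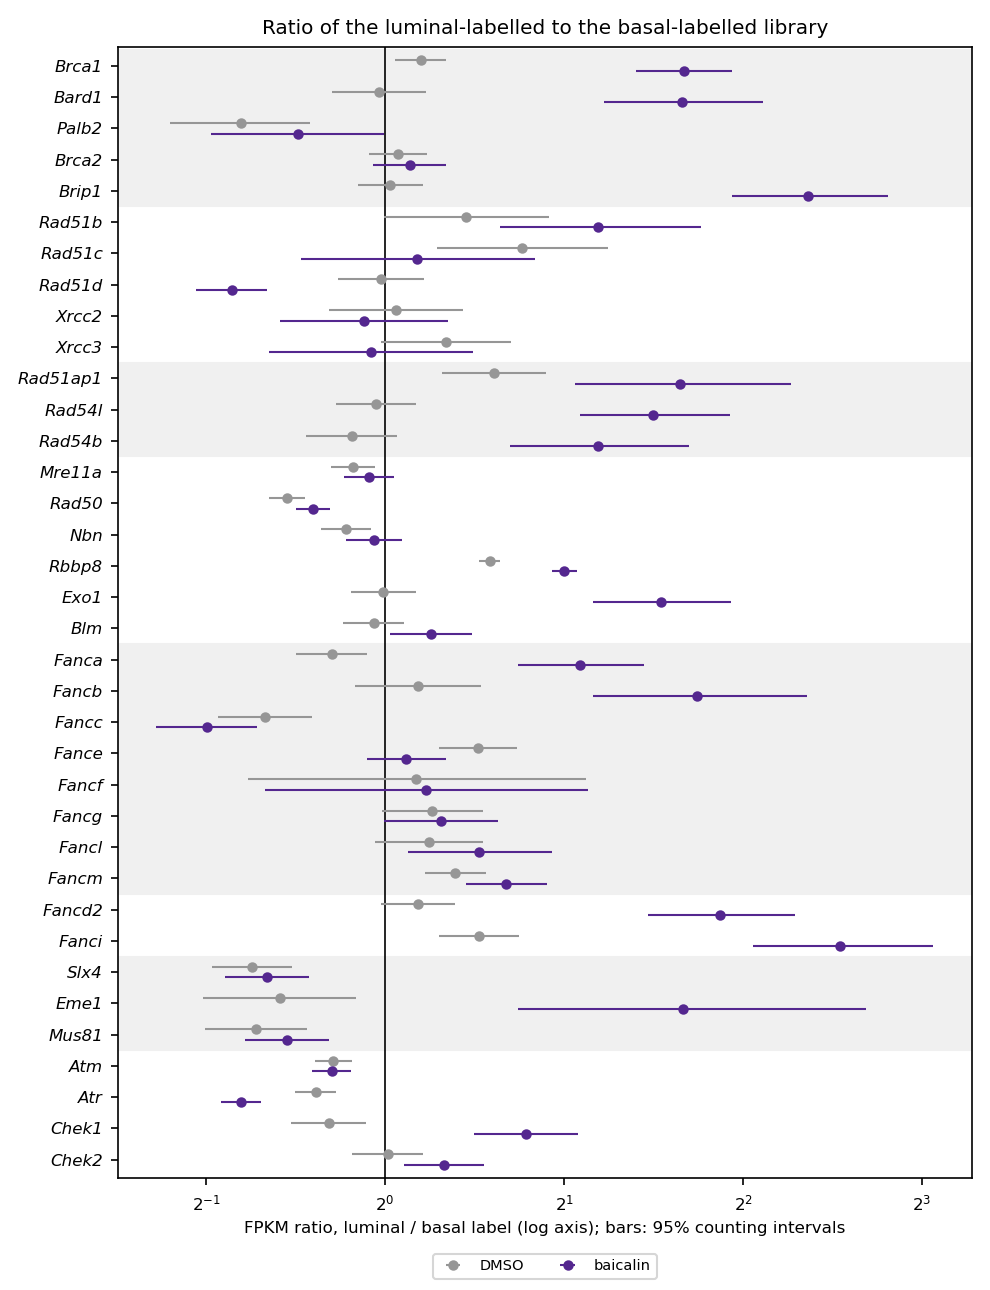
Ratio of the FPKM in the library labelled luminal to that in the library labelled basal (log axis), with DMSO in grey and with baicalin in purple, and bars for the exact 95% counting intervals. With DMSO the points lie between 0.571 and 1.70, and with baicalin they reach 5.82 for Fanci.

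The other genes of recombination and crosslink repair, and those of other repair pathways, were read in the same way. Of 54 further genes of homologous recombination and the Fanconi pathway, 53 were tested. Of these, 7 were lower past 1 and none higher under the basal label, with a median change of -0.19, beside 3.33% of all genes lower. Under the luminal label 1 was lower, with a median of -0.18, beside 1.59% of all genes. The counting interval lay below 1 for 27 and above 1 for 6 under the basal label, beside 26.3% and 28.1% of all genes. Under the luminal label these counts were 32 and 3, beside 28.7% and 22.9%. Clspn, the adaptor through which ATR activates CHK1, was at 6.57 and 0.563 FPKM under the basal label and at 6.56 and 2.62 FPKM under the luminal label, and it was the 1 gene past the threshold in both. Fignl1 was at 3.87 and 0.540 FPKM and at 2.20 and 1.27 FPKM.

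Outside recombination, few repair genes passed a log2 change of 1, though some lists were lower under the luminal label. There the counting interval lay below 1 for 6 of 7 mismatch repair genes and above 1 for 1. For 21 base excision repair genes these counts were 12 and 1, beside 28.7% and 22.9% of all genes. The mismatch repair median there, -0.57, was further below 0 than the -0.34 of the 36 genes. Under the basal label, the interval lay below 1 for 4 mismatch repair genes and above 1 for 1, beside 26.3% and 28.1% of all genes. None of 16 end joining genes, 7 mismatch repair genes, 21 nucleotide excision repair genes and 9 translesion synthesis genes was lower or higher past 1 under either label. Their median changes were -0.02, -0.21, 0.09 and 0.08 under the basal label and -0.16, -0.57, -0.06 and -0.20 under the luminal label. Of 21 base excision repair genes, Neil3, a glycosylase of dividing cells, was the only one past 1, under the basal label alone, at 2.29 and 0.302 FPKM under the basal label and 4.38 and 1.84 FPKM under the luminal label. Neil2, another glycosylase, was at 0.813 and 2.21 FPKM and at 0.597 and 0.627 FPKM. Msh3, of mismatch repair, was at 2.62 and 2.06 FPKM and at 4.03 and 2.24 FPKM. In several other genes the baicalin level was the higher one under the basal label. Ercc5, a nuclease of excision repair, was at 9.05 and 18.6 FPKM there (ratio 2.05) and at 11.8 and 12.5 FPKM under the luminal label, and Uvssa was at 3.74 and 6.08 FPKM and at 5.58 and 5.19 FPKM. The translesion polymerase genes Polk and Poli were at 10.9 and 1.77 FPKM with DMSO and at 22.2 and 4.15 FPKM with baicalin under the basal label, and at 5.95 and 1.74 FPKM and 10.5 and 1.38 FPKM under the luminal label. Of the end joining list, Shld1, which limits resection, was at 0.547 and 1.61 FPKM and at 0.927 and 0.595 FPKM, and Parp3 at 13.0 and 11.3 FPKM and at 6.17 and 11.7 FPKM. Under the luminal label the counting intervals of Shld1 (0.374 to 1.08), Uvssa (0.848 to 1.02) and Poli (0.613 to 1.02) held 1. So did those of Ercc5 (0.983 to 1.14) and Neil2 (0.726 to 1.52).

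Most genes of proliferation were lower, and most targets of p53 higher, in the same libraries. Of 29 proliferation genes, 25 were lower past 1 under the basal label, with a median change of -1.82, and 5 under the luminal label, with a median of -0.75. Mki67 was at 54.0 and 4.06 FPKM under the basal label and at 68.6 and 25.9 FPKM under the luminal label. Ccna2, a cyclin of S and G2 phase, was at 26.5, 2.15, 29.8 and 12.5 FPKM in the same order, and Top2a at 41.7, 5.17, 43.9 and 21.1 FPKM. Pcna, at 70.8, 38.8, 75.6 and 48.0 FPKM, and E2f1, at 14.3, 7.44, 6.31 and 4.53 FPKM, were lower by less. Of 16 p53 target genes, 12 were higher past 1 under the basal label and 7 under the luminal label, with median changes of 1.29 and 0.87. Gadd45a, which acts in growth arrest, was at 30.9 and 141 FPKM and at 7.32 and 46.6 FPKM, and Sesn2 at 6.45 and 28.1 FPKM and at 10.6 and 26.2 FPKM. The median change of the proliferation genes, like that of the repair genes, was larger under the basal label. The part of proliferation in the changes of the repair genes was not tested.

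**Figure D5:**
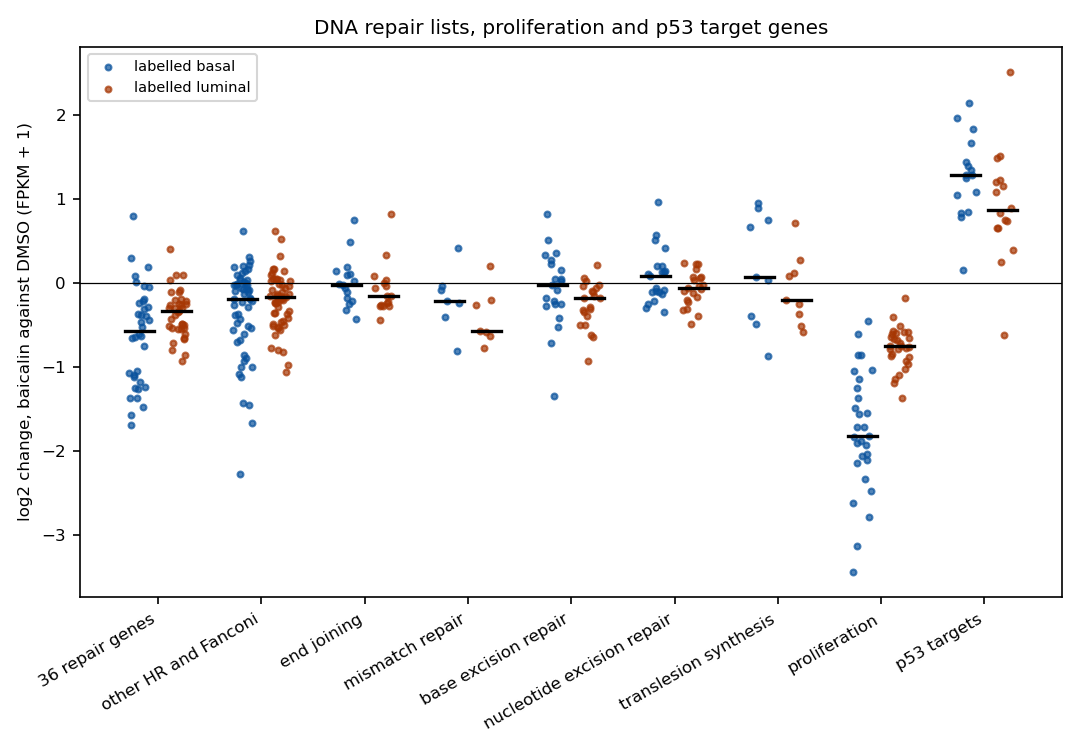
Log2 change of FPKM + 1 with baicalin for the 36 repair genes and for the genes of 8 other lists, 1 point per gene, under the basal label (blue) and the luminal label (brown), with black bars at the medians. The medians of the 36 genes are -0.57 and -0.34, those of the proliferation genes -1.82 and -0.75, and those of the p53 targets 1.29 and 0.87.

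The promoters are shown because E2F factors, which bind GC-rich sites, and factors of the CCAAT box are known regulators of genes used in S phase. Promoters of 250 bases before to 50 bases after the start site were taken from RefSeq (GRCm38.p6), and 31 of them matched 28 of the 36 genes by symbol. Rad51d, Rad50, Nbn, Rbbp8, Exo1, Fancd2, Xrcc2 and Rad54b had no match. The stretches of 60 bases below lie before the start sites in both annotations used, are written 5′ to 3′ on the strand of the gene, and have the searched letters in capitals. The genes of the first 4 were lower past 1 under the basal label and those of the last 3 were not.
Brip1, chr11:86201194-86201253, minus strand: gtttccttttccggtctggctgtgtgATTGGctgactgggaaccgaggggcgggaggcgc
Fanca, chr8:123318577-123318636, minus strand: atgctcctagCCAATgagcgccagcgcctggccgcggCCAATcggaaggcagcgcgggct
Bard1, chr1:71103148-71103207, minus strand: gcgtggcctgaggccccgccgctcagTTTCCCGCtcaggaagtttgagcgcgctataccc
Fancb, chrX:164980393-164980452, plus strand: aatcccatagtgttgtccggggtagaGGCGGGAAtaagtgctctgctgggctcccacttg
Fancm, chr12:65075523-65075582, plus strand: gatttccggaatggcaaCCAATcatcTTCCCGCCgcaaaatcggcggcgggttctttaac
Chek2, chr5:110839805-110839864, plus strand: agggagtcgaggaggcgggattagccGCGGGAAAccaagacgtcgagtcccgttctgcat
Brca2, chr5:150522427-150522486, plus strand: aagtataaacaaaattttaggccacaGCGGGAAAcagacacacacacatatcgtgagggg

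Capitals in Brip1 and Fanca mark CCAAT or its reverse complement, as does the first run in Fancm, and the other runs mark E2F-like letters. The E2F-like letters searched on both strands were TTTCGCGC, TTTGGCGC, TTTCCCGC, TTTGCCGC and TTCCCGCC, of which TTTCCCGC and TTCCCGCC can overlap. They were found in 10 of the 31 promoters (32.3%), in 3.89% of all 32851 promoters, and in 6.49% of the 13753 promoters of protein-coding genes above 0 in all libraries. Within the repair genes they were in 4 of the 11 promoters of genes lower past 1 under the basal label (36.4%) and in 6 of the 20 others (30%), a difference that was not tested. CCAAT was in 20 of the 31 promoters (64.5%), against 37.4% of all promoters and 37.5% of those of expressed protein-coding genes. The letters TTTGAA, a motif of genes expressed late in the cell cycle, were in 3 of the 31 (9.68%), against 17.9% of all promoters and 11.9% of those of expressed protein-coding genes. For 29 of the 31 promoters, bases after the start site were found in a transcript of the gene. The exceptions, that of Eme1 and a promoter of Rad51b, both hold TTTGAA, so this count is uncertain. The median GC content was 57.3% in the repair gene promoters, 52.7% in all promoters and 60.3% in those of expressed protein-coding genes. These are matches of letters, not binding sites.

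Reads of neighbouring genes limit some of these values. The methods of the study name a stranded library kit, but no source used here says whether strand was used in counting. In the annotation, 18 of the 36 genes share exon bases with another gene. For 8 of them (Eme1, Fanca, Fancc, Fancf, Fanci, Fancl, Rad54b and Rad54l) the shared bases were at least 10% of the exon bases. Of the 13 genes lower past 1 under the basal label, 7 shared no exon base, namely Brca1, Bard1, Brip1, Rad51ap1, Exo1, Fancb and Chek1.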

How the data were processed

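The authors sequenced oligo(dT)-enriched RNA of sorted mouse mammary cells and deposited 1 table of FPKM values per gene for 4 libraries. The study's methods name HISAT2, GRCm38, Ensembl release 94 and featureCounts 1.5.0, whereas the submitters' processing notes list Bowtie 0.12.2 with the builds mm8 and GRCm38. The identifiers and exon lengths of GRCm38 fit the values, and coordinates are those of GENCODE M21. The strand setting of the counting and any pooling of mice are not given in the sources used here.

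From the deposited FPKM, whole fragments were recovered through the exon length of 54409 genes. Genes above 0 in all 4 libraries were compared as log2(FPKM + 1), with a threshold of 1. Exact 95% Clopper-Pearson intervals of ratios were computed with scipy 1.17.1, pandas 2.3.3 and numpy 2.4.6 in Python 3.11.15, and the scripts were tested on simulated data. No count model was fitted, since each group had 1 library. All 36 repair genes were described. Other genes were named by a rule: in each list, the 2 members with the largest log2 change in either baicalin comparison that reached 1 FPKM in a library, and always Mki67, Top2a, Pcna and E2f1. The repair genes and the 8 lists of 173 other genes were chosen with earlier results of these data known. Alternatives were other pseudocounts, filters, scalings and thresholds. Some genes that this rule would name are not reported here.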

Additional observations from a re-analysis of the deposited data

Results flagged for a closer look

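For 3 repair genes the libraries of both labels differed in the direction of the baicalin change, and the difference was not tested, since each group had 1 library. Rad50 was at 19.0 and 18.5 FPKM with DMSO and baicalin under the basal label and at 13.0 and 14.0 FPKM under the luminal label. Its log2 change was higher by 0.14 under the luminal label, and the intervals of both ratios held 1. Fance was at 4.66 and 5.02 FPKM under the basal label and at 6.67 and 5.45 FPKM under the luminal label, and the change under the luminal label minus that under the basal label was -0.34. The interval of its ratio held 1 under the basal label (0.918 to 1.27) and lay below 1 under the luminal label (0.707 to 0.943). Atr was at 3.06 and 3.66 FPKM and at 2.34 and 2.09 FPKM, and the same difference was -0.31. For Atr the intervals lay on opposite sides of 1, from 1.11 to 1.28 under the basal label and from 0.821 to 0.976 under the luminal label.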

How the results depend on the processing

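No paired analysis was possible because each group had 1 library, and for the same reason no library could be left out in turn. Under the basal label, the count of 13 repair genes that were lower was 15 with a pseudocount of 0.1 or none, 13 with other filters, TPM or centring on the median of all genes, and 0 with a threshold of 2. By counting intervals it was 29 lower and 3 higher. The median of -0.57 was -0.77 with a pseudocount of 0.1 and -0.88 with none. Under the luminal label, the count of 0 lower was 5 with a pseudocount of 0.1 or none, 3 in TPM, and 30 lower and 1 higher by intervals, and the median of -0.34 was -0.53 with no pseudocount. Between labels with DMSO, intervals gave 12 lower and 7 higher in place of 0 and 0. With baicalin, the 3 higher genes were 12 with a pseudocount of 0.1 and 14 with none, beside 11.4% and 15.1% of all genes. They were 9 in TPM and 0 with a threshold of 2, beside 8.09% and 1.36% of all genes. Intervals gave 8 lower and 19 higher. Among all genes, 592 (3.33%) were lower under the basal label, against 1302 (7.32%) with a pseudocount of 0.1 and 2341 (12.4%) with none. In TPM they were 1002 (5.63%), and with a threshold of 2 they were 132 (0.742%). The corresponding counts under the luminal label were 282, 913, 2175, 578 and 46, or 1.59%, 5.13%, 10.9%, 3.25% and 0.259% of the genes tested. The added 1 pulls the change of genes near 1 FPKM toward 0, and most repair genes are in that range. Depth limits the genes with few fragments, such as Fancf and Eme1, and the variation between cultures could not be measured. In both baicalin comparisons no repair gene changed sign in TPM or after centring.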
